A study of Mus musculus with 6 samples.

Results

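The expression of 6 genes that are used to recognise horizontal cells, namely Lhx1, Onecut1, Onecut2, Calb1, Prox1 and Slc4a3, was examined in retinas injured with NMDA and then treated with PBS or with stem cell factor (SCF). The genes were chosen by symbol. All 6 had rows in the files, and 5 of the 6 had a transcript listed for every library and a value above 0, among 25202 genes measured in this way. The samples were 6 retinal libraries of wild type C57BL/6 mice (C57BL/6J in the study's methods), labelled postnatal week 5. Both groups received NMDA, an agonist of ionotropic glutamate receptors, in the vitreous. The NMDA + PBS group (3 libraries, labelled NMDA) was then injected with the vehicle PBS, and the NMDA + SCF group (3 libraries, labelled SCF) with recombinant SCF, the ligand of the receptor tyrosine kinase c-kit, 2 days after NMDA. Retinas were collected 1 week after the latter injection, and no uninjured retina was among these libraries. How many mice entered a library was not given in the sources used here, so the p-values describe the spread between these libraries only.

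Horizontal cells are inhibitory interneurons of the outer retina. They receive input from photoreceptors and send feedback onto photoreceptor terminals and bipolar cells, and they are few in the mouse retina. Their precursors use the transcription factors Onecut1 and Onecut2 and then Lhx1 and Prox1, and the mature cells are stained for the calcium buffer calbindin (Calb1). Several of these genes are also used elsewhere in the retina, Onecut1 and Onecut2 in ganglion cells, Prox1 in amacrine and bipolar cells, and Calb1 in amacrine and ganglion cells. In RNA of whole retina, fewer cells of a type and less RNA per cell cannot be told apart.

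The libraries differed in a way that is crossed only in part with treatment. The values were given over 2 transcript lists. List A was that of NMDA + PBS replicate 1 together with the whole SCF group, and list B was that of NMDA + PBS replicates 2 and 3. On the leading principal component of log2(FPKM + 1), with 53.3% of the variance, NMDA + PBS replicate 1 lay at -35.9, beside the SCF group (-45.2 to -40.1), and its fellow controls lay at 68.6 (replicate 2) and 94.9 (replicate 3). FPKM (fragments scaled by transcript length and by the library's total) was summed per gene over the transcripts in both lists. The component was computed on these sums, so the summing did not remove the split. The value within list A is therefore given for each member measured in every library. Clean reads numbered 44925938 to 48783182 per library. The fragments behind the FPKM values, recovered from the size of the value of 1 fragment, numbered 3404312 to 4440564, which was 14.1 to 18.2% of the clean read pairs.

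The 300 bases around the transcription start of Lhx1 and Onecut1 are shown, because these were the transcription factors of the set with fragments in every library. Both sequences are the coding strand of RefSeq on GRCm38.p6, and run from 250 bases before the RefSeq start to 50 bases after it. The Lhx1 window is chr11:84525485-84525784 on the minus strand and the Onecut1 window is chr9:74861671-74861970 on the plus strand. The full coding transcript of Onecut1 in the files began at the RefSeq start, and that of Lhx1 began 1 base before it. Capitals mark matches to short motifs on either strand, none of which overlapped another.
Lhx1: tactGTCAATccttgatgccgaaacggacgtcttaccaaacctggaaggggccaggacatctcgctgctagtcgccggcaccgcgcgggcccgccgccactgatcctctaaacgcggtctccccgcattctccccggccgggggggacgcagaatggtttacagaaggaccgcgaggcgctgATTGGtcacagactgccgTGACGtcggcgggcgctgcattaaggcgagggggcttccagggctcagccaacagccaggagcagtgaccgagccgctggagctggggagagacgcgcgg
Onecut1: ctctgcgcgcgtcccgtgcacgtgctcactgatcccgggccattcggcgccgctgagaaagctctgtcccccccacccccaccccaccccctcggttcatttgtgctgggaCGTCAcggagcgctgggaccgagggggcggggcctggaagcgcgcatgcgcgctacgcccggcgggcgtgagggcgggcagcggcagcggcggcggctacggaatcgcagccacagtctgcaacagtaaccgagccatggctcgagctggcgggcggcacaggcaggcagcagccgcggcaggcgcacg

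In the Lhx1 window the capitals marked a C form of the ONECUT site (ATTGAC, on the other strand), a CCAAT box (CCAAT, on the other strand, ending 64 bases before the start) and a CRE half-site (TGACG, ending 46 bases before the start). In the Onecut1 window they marked a CRE half-site (on the other strand, ending 135 bases before the start). Of 32851 RefSeq promoter windows of the same length, 6.27% held ATTGAC, 37.4% held CCAAT and 20.8% held TGACG on either strand. The letters ATTGAT (in 7.54% of windows), ATCGAT (0.925%), the homeodomain core TAATTA (5.29%) and the E-box CAGCTG (16.3%) were in neither window. The motifs were picked with the sequences in view, and a match describes letters, not binding.

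Across all 25202 genes, limma on log2(FPKM + 1) placed no gene past the study's thresholds of a 2-fold change and an adjusted p of 0.001 (0%), and none at an adjusted p of 0.05 (0%), so no member was called. Voom on recovered fragments placed 2 genes past an adjusted p of 0.05, neither of them a member. At an unadjusted p of at most 0.05, 2324 genes (9.22%) differed. Of the 5 members measured in every library, 1, Onecut1, was in that class. In 6.45% of all genes every NMDA + SCF library was below every NMDA + PBS library, and 1 of the 5 members had this order, again Onecut1. In 7.63% of all genes every NMDA + SCF library was above, and 0 of the 5 members had this order. The median log2 fold change of the 5 members was -0.27, against -0.01 for all genes.

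**Figure D1:**
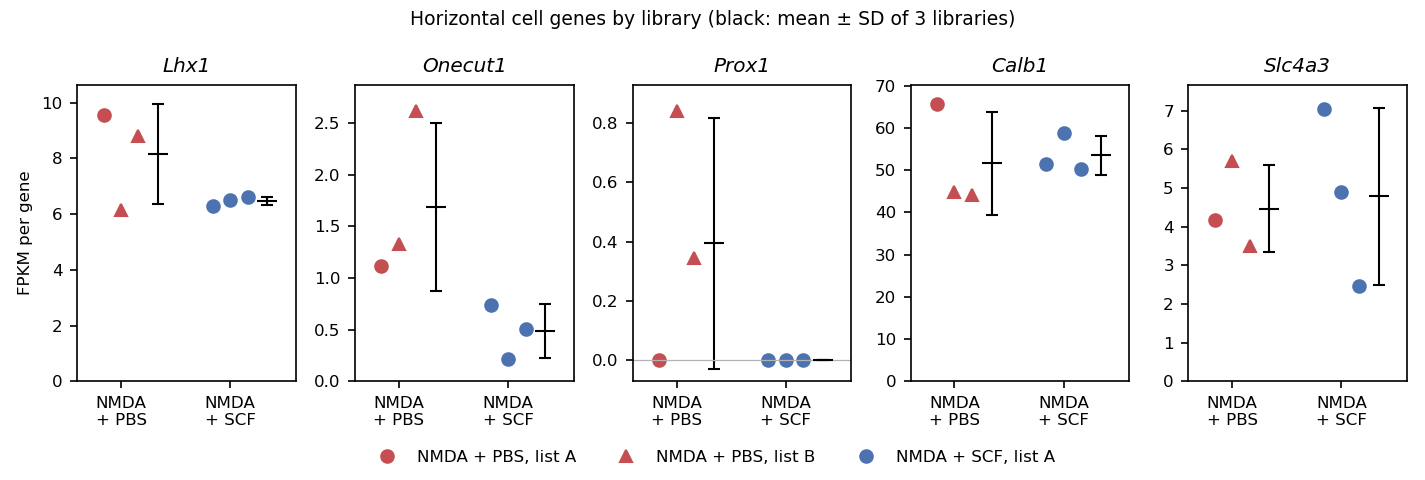
FPKM per gene (vertical axis, from 0) of the 5 horizontal cell genes with a transcript listed for all 6 libraries. Red points are NMDA + PBS, blue points NMDA + SCF, triangles are libraries of transcript list B, and black bars give the mean ± SD of 3 libraries, which for Prox1 in NMDA + PBS reaches below 0. Only for Onecut1 do the groups not overlap, and Prox1 is above 0 only in the triangles.

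Lhx1, a LIM homeodomain factor needed for horizontal cells to settle in their layer, was detected in every library and its groups overlapped. It lies on chromosome 11, minus strand, 84518284 to 84525535 on GRCm38. Its level was 9.56, 6.15 and 8.79 FPKM across NMDA + PBS replicates 1 to 3, and 6.30, 6.50 and 6.62 FPKM across NMDA + SCF replicates 1 to 3. Of the controls, replicates 1 and 3 were above the whole SCF group and replicate 2 was below it. Lhx1 averaged 8.16 ± 1.79 FPKM (SD, n = 3) after PBS and 6.47 ± 0.158 FPKM (SD, n = 3) after SCF. The spread relative to the mean was thus 21.9% in NMDA + PBS and 2.44% in NMDA + SCF. The log2 fold change was -0.27 (SE 0.23, 95% interval -0.82 to 0.27), with a limma adjusted p of 0.690. An exact two-sided permutation test gave p = 0.4, and 0.1 is the smallest that 3 against 3 libraries allow.

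Single libraries moved this value. Without NMDA + PBS replicate 2 the log2 fold change of Lhx1 was -0.44 (limma, unadjusted p = 0.0385, adjusted p = 0.550), and without NMDA + PBS replicate 1 it was -0.16. Within list A, where NMDA + PBS replicate 1 is the only control, it was -0.50, with no test. Most of the reads came from the full coding transcript ENSMUST00000018842 (3846 bases), with 105, 94 and 140 fragments in NMDA + PBS and 73, 87 and 88 in NMDA + SCF. A short coding transcript, ENSMUST00000092827 (382 bases), added 1.54 FPKM to NMDA + PBS replicate 1 from 2 fragments. For the full transcript alone the levels were 8.02, 6.15 and 8.20 FPKM in NMDA + PBS against 5.54, 6.50 and 6.62 in NMDA + SCF, and the log2 fold change was -0.22 (SE 0.23). For this transcript NMDA + PBS replicate 2 lay inside the range of the SCF group, and replicates 1 and 3 lay above it.

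Onecut1, a cut homeodomain factor that acts early in horizontal and ganglion cell development, was the only one of the 5 measured members whose groups did not overlap. Its fitted difference was the largest of the 5 on the log2(FPKM + 1) scale, whereas that of Prox1 was larger with a pseudocount of 0.1 (-1.79 against -1.62) and with voom (-2.57 against -1.79). It lies on chromosome 9, plus strand, 74861921 to 74891781. Its level was 1.11, 1.33 and 2.62 FPKM across NMDA + PBS replicates 1 to 3, and 0.738, 0.218 and 0.512 FPKM across NMDA + SCF replicates 1 to 3. All 3 NMDA + SCF libraries were below all 3 NMDA + PBS libraries. The mean was 1.69 ± 0.812 FPKM (SD, n = 3) against 0.489 ± 0.261 FPKM (SD, n = 3), a 3.45-fold ratio of means. On the log2(FPKM + 1) scale, which understates changes at such low levels, the log2 fold change was -0.83 (SE 0.33, 95% interval -1.60 to -0.05). The limma test gave an unadjusted p of 0.0390 and an adjusted p of 0.536, and the exact two-sided permutation test gave p = 0.1, the smallest it can give. The unadjusted limma p was thus below 0.05, and the difference did not pass the adjustment over all genes.

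The values of Onecut1 rested on few reads. The full coding transcript ENSMUST00000056006 had 15, 21 and 46 fragments in NMDA + PBS and 10, 3 and 7 in NMDA + SCF, in all 82 against 20. The nearest libraries of the groups could not be told apart by counting error, since the 15 fragments of NMDA + PBS replicate 1 have a 95% exact Poisson interval of 8.40 to 24.7 and the 10 fragments of NMDA + SCF replicate 1 one of 4.80 to 18.4, at 3404312 and 3426310 counted fragments in all. These intervals cover counting error only. Within list A the log2 fold change was -0.52, with no test. The limma unadjusted p, with no adjustment over genes, passed above 0.05 when any of 4 libraries was left out. It was 0.0541 without NMDA + PBS replicate 2, 0.0633 without NMDA + PBS replicate 3, 0.117 when replicate 2 of the SCF group was left out and 0.0801 when its replicate 3 was. The direction was the same in all 14 alternatives. Genes of ganglion cells, which also use Onecut1, were measured beside it. Of 11 ganglion cell genes 8 had a lower and 3 a higher fitted value in NMDA + SCF, with a median log2 fold change of -0.13. The 11 summed to 324 to 570 FPKM in NMDA + PBS and 346 to 426 FPKM in NMDA + SCF. An unadjusted limma p of at most 0.05 was reached by 2 of the 11, both lower, against 9.22% of all genes in either direction. None of the 11 passed the adjustment. For these 2 genes the control of list A lay within or close to the range of the SCF group, and the controls of list B lay above it. The part of ganglion cells in the Onecut1 difference was not tested.

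**Figure D2:**
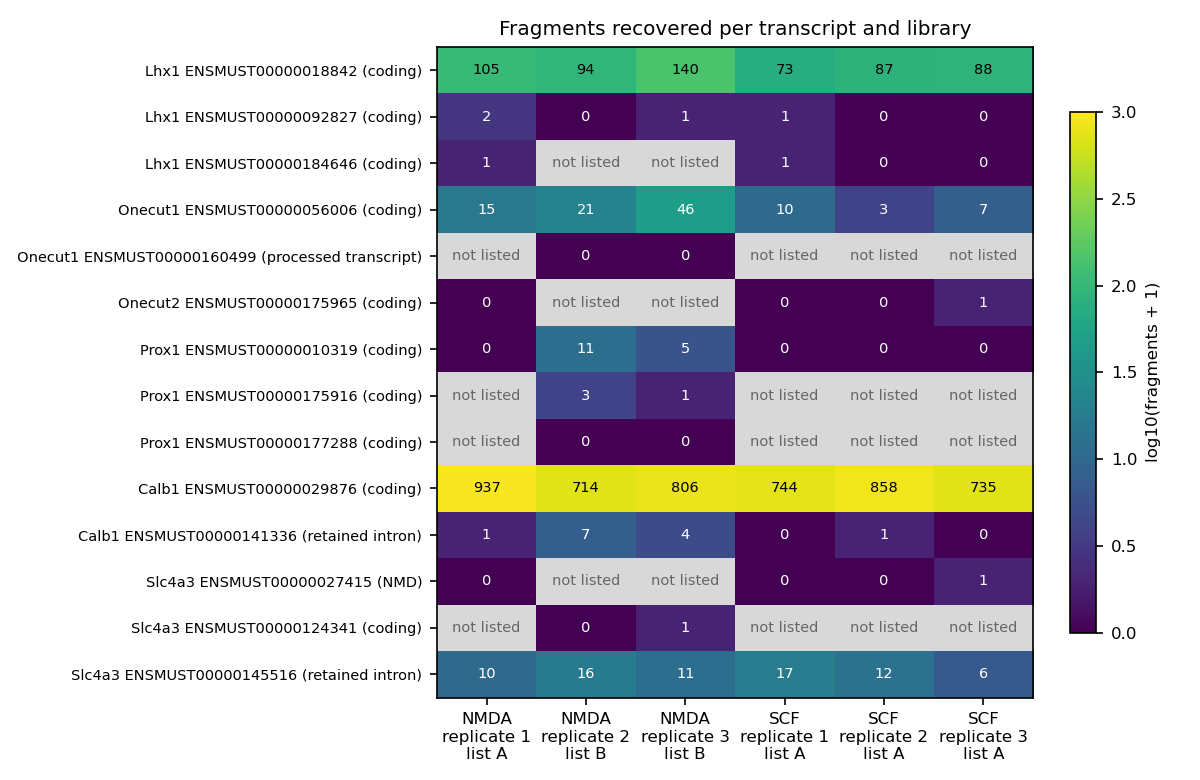
Fragments recovered for each of the 14 transcripts of the 6 genes (rows) in each library (columns), with colour on a log10(fragments + 1) scale and the number in each cell. Grey cells are transcripts that the library's list does not hold. The full coding transcripts of Lhx1, Onecut1 and Calb1 carry the reads of these genes, whereas for Slc4a3 a retained intron transcript does, with 37 fragments in NMDA + PBS and 35 in NMDA + SCF.

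Onecut2, the paralog of Onecut1, could not be compared. Its only listed transcript, ENSMUST00000175965 (16234 bases), was in list A alone. It was listed at 0 in NMDA + PBS replicate 1 and in NMDA + SCF replicates 1 and 2, and at 0.0216 FPKM, or 1 fragment, in NMDA + SCF replicate 3. All 4 of these libraries were thus at or under the floor of 3 fragments that a count of 0 allows.

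Prox1, a homeodomain factor that promotes the horizontal cell fate, was above 0 only in the libraries of list B. It lies on chromosome 1, minus strand, 190122453 to 190169399. Its shared transcript ENSMUST00000010319 was listed at 0, 0.842 and 0.343 FPKM across NMDA + PBS replicates 1 to 3 (0, 11 and 5 fragments). It was listed at 0 in all 3 NMDA + SCF libraries. NMDA + PBS replicate 1 therefore matched the NMDA + SCF libraries and the groups overlapped. The fitted log2 fold change was -0.44 (SE 0.21, 95% interval -0.94 to 0.07), with a limma adjusted p of 0.545 and an exact two-sided permutation p of 0.4. No ratio is given, since the NMDA + PBS mean without replicate 2 (0.171 FPKM) was below the level that 3 fragments would give in the NMDA + SCF libraries (0.264 FPKM).

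The transcript list and the treatment could not be separated for Prox1. Within list A every library was at 0. Without NMDA + PBS replicate 1, so that all controls were of list B, the log2 fold change was -0.65 (limma, unadjusted p = 0.00888, adjusted p = 0.128). Without NMDA + PBS replicate 2 it was -0.21 (limma, unadjusted p = 0.181, adjusted p = 0.602), and voom on recovered fragments gave -2.57 (unadjusted p = 0.0259, adjusted p = 0.445). List B also held the coding transcripts ENSMUST00000175916, with 3 and 1 fragments in NMDA + PBS replicates 2 and 3, and ENSMUST00000177288, with 0 in both. Lens genes, measured beside it because lens cells also use Prox1, had higher values in NMDA + SCF. Of 11 lens genes 10 had an unadjusted limma p of at most 0.05 and none passed the adjustment, and their summed level was 23.5 to 305 FPKM in NMDA + PBS and 461 to 9611 FPKM in NMDA + SCF. The part of lens RNA in the Prox1 values was not tested. The lens gene Foxe3 was at 0 in all NMDA + PBS libraries. Across NMDA + SCF replicates 1 to 3 it was at 62.3, 0.331 and 41.7 FPKM (185, 1 and 125 fragments).

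Calb1, which encodes calbindin and buffers calcium in horizontal cells, was the most abundant member, and its groups overlapped. It lies on chromosome 4, plus strand, 15881264 to 15908064. Its level was 65.6, 44.9 and 44.2 FPKM across NMDA + PBS replicates 1 to 3, and 51.4, 58.8 and 50.3 FPKM across NMDA + SCF replicates 1 to 3. NMDA + PBS held both the highest and the lowest library, and its high library was the one of list A. Calb1 averaged 51.6 ± 12.1 FPKM (SD, n = 3) after PBS and 53.5 ± 4.60 FPKM (SD, n = 3) after SCF. The log2 fold change was 0.07 (SE 0.20, 95% interval -0.41 to 0.55) with a limma adjusted p of 0.910, and its sign turned under upper-quartile (-0.05) and median-of-ratios scaling (-0.00370). The exact two-sided permutation test gave p = 0.6. Within list A the log2 fold change was -0.29, with no test, and without NMDA + PBS replicate 1 it was 0.26. With 721 to 938 fragments in NMDA + PBS and 735 to 859 in NMDA + SCF, counting error was small beside the spread between libraries.

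Nearly all Calb1 fragments fell on the coding transcript ENSMUST00000029876 (4222 bases, 11 exons). The retained intron transcript ENSMUST00000141336 (736 bases) had 1, 7 and 4 fragments in NMDA + PBS and 0, 1 and 0 in NMDA + SCF. Taken alone it had a log2 fold change of -0.97 (SE 0.38, limma unadjusted p = 0.0346, adjusted p = 0.591 over transcripts), opposite in sign to the gene. Its NMDA + PBS library of list A had 1 fragment, as did NMDA + SCF replicate 2, so the groups overlapped in fragments and the higher libraries were those of list B.

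Slc4a3, an exchanger of chloride for bicarbonate, was measured through a short transcript and its groups overlapped. The gene lies on chromosome 1, plus strand, and the only transcript in both lists was the retained intron transcript ENSMUST00000145516 (706 bases, 3 exons, 75546527 to 75547744). Its level was 4.16, 5.70 and 3.51 FPKM across NMDA + PBS replicates 1 to 3, and 7.03, 4.88 and 2.46 FPKM across NMDA + SCF replicates 1 to 3. The NMDA + SCF libraries held both the highest and the lowest value. The mean was 4.46 ± 1.12 FPKM (SD, n = 3) against 4.79 ± 2.29 FPKM (SD, n = 3), from 37 and 35 fragments. The log2 fold change was 0.02 (SE 0.37, 95% interval -0.84 to 0.88), with a limma adjusted p of 0.986 and an exact two-sided permutation p of 1, and its sign turned under upper-quartile (-0.08) and median-of-ratios scaling (-0.04). Leaving out 1 library moved it from -0.25 (without NMDA + SCF replicate 1) to 0.35 (without NMDA + SCF replicate 3), and within list A it was 0.08. The interval runs from 0.559-fold to 1.85-fold on the FPKM + 1 scale, so differences in either direction within it remain compatible with these libraries.

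The short transcript is not the exchanger's messenger RNA. Its first exon lay inside intron 1 of the coding transcript ENSMUST00000124341 (7182 bases, 23 exons), and its last exon ran 346 bases into intron 3 (75547399 to 75547943), so that 433 of its 706 bases were outside the exons of that transcript. The coding transcript itself was in list B only, with 0 and 1 fragments in NMDA + PBS replicates 2 and 3. A transcript marked for nonsense-mediated decay, ENSMUST00000027415, was in list A only, with 0 fragments in NMDA + PBS replicate 1 and 0, 0 and 1 in NMDA + SCF. The Slc4a3 values thus describe reads at the start of the gene, and the coding messenger RNA was at or under 1 fragment wherever it was listed.

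**Figure D3:**
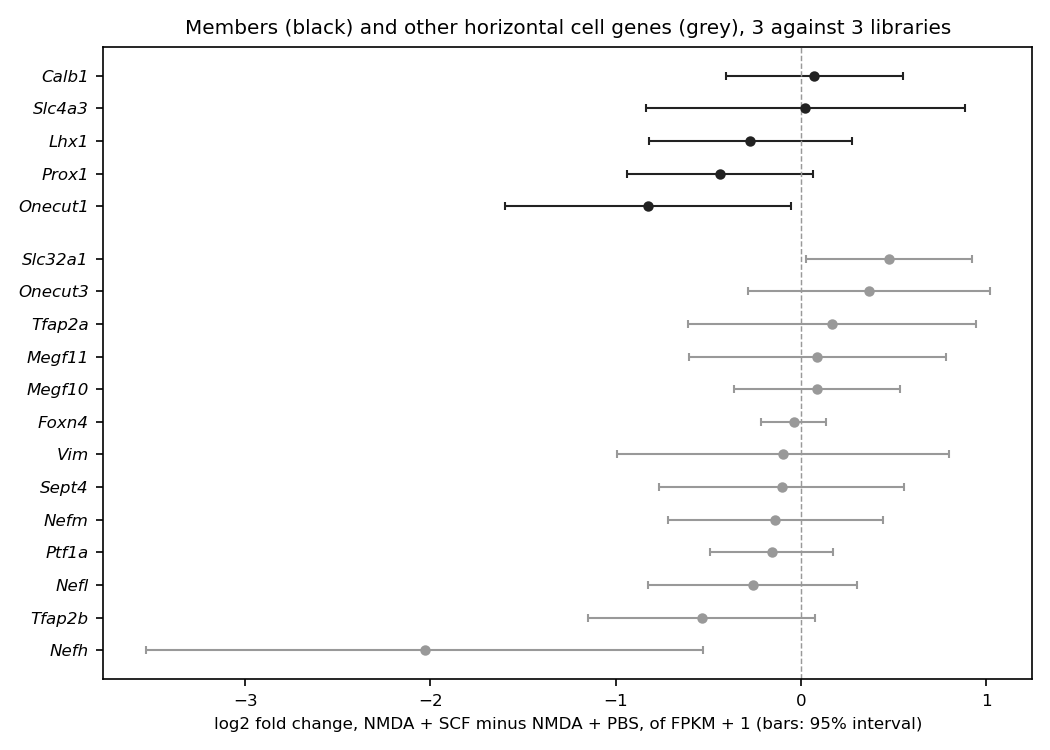
Log2 fold change of FPKM + 1, NMDA + SCF minus NMDA + PBS (horizontal axis), with 95% intervals from limma, for the 5 members (black) and 13 other genes of a horizontal cell list (grey). Only the intervals of Onecut1, Nefh and Slc32a1 leave out 0, and no gene shown has an adjusted p of at most 0.05.

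The level per length fell in the order Calb1 (mean of 6 libraries 52.5 FPKM), Lhx1 (7.32), Slc4a3 (4.62), Onecut1 (1.09) and Prox1 (0.197). Calb1 was apart from Lhx1, with its lowest library (44.2 FPKM) above the highest of Lhx1 (9.56 FPKM). The ranges of all lower neighbours overlapped. Within a library, Lhx1 was above Slc4a3 in 5 of 6, Slc4a3 above Onecut1 in 6 of 6, and Onecut1 above Prox1 in 6 of 6. The place of Slc4a3 is that of its short retained intron transcript, not of its coding messenger RNA. In fragments Slc4a3 had 10, 16 and 11 in NMDA + PBS and 17, 12 and 6 in NMDA + SCF. Onecut1 had 15, 21 and 46 in NMDA + PBS and 10, 3 and 7 in NMDA + SCF. By mean level Calb1 was at percentile 95.8 of the genes measured, Lhx1 at 77.8, Slc4a3 at 70.8, Onecut1 at 45.8 and Prox1 at 19.0. The 2 lowest members also had the largest relative spread over the 6 libraries, from 15.8% for Calb1 to 78.1% for Onecut1 and 174% for Prox1.

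No other gene of a horizontal cell list was called. Of 14 such genes 13 had a value, 8 had a lower and 5 a higher fitted value, and the median log2 fold change was -0.10. Among the 8 lower genes, Ptf1a (2, 0 and 0 fragments in NMDA + PBS), Foxn4 (0, 1 and 0) and Tfap2b (0, 1 and 3) were near the floor. They had 0 fragments in each NMDA + SCF library. All 13 genes with a value together summed to 269 to 327 FPKM in NMDA + PBS and 267 to 302 FPKM in NMDA + SCF. Onecut3, another ONECUT factor, had 8.86, 5.58 and 4.29 FPKM in NMDA + PBS and 7.88, 8.36 and 7.87 FPKM in NMDA + SCF (log2 fold change 0.37, SE 0.28), and its control of list A was above the whole SCF group. The list ran from Nefh to Slc32a1. Nefh, the heavy neurofilament subunit, which ganglion cells also make, had 7.87, 55.5 and 41.4 FPKM in NMDA + PBS and 6.43, 5.90 and 5.07 FPKM in NMDA + SCF (log2 fold change -2.03, SE 0.64, limma adjusted p = 0.536). Its groups did not overlap, and the library of list A was close to the NMDA + SCF libraries. Slc32a1, the vesicular transporter of GABA, which amacrine cells also use, had 125.9, 92.9 and 87.4 FPKM against 148, 137 and 137 FPKM (log2 fold change 0.48, SE 0.19, limma adjusted p = 0.536). Its groups did not overlap either, and the control nearest to the SCF group was again that of list A.

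Families of the members were likewise without a called gene. Of 8 other Slc4 transporters with a value, the log2 fold change ran from -0.92 for Slc4a7, a sodium bicarbonate cotransporter, to 0.76 for Slc4a5. The FPKM of Slc4a5 was above all NMDA + PBS libraries in every NMDA + SCF library. It rested on 3, 7 and 6 fragments in NMDA + PBS and 8, 7 and 13 in NMDA + SCF, so the groups overlapped in fragments. Of 7 other calcium-binding proteins the log2 fold change ran from -0.23 for Pvalb to 1.03 for Necab2. Pvalb was near the floor, with 1, 0 and 1 fragments in NMDA + PBS and 0 in each NMDA + SCF library. Necab2 had 22.6, 29.3 and 16.8 FPKM in NMDA + PBS and 45.3, 43.2 and 51.3 FPKM in NMDA + SCF (SE 0.23, limma unadjusted p = 0.00258, adjusted p = 0.536), and its control of list A was also below the whole SCF group. Cabp5, a calcium-binding protein of bipolar cells, also had groups that did not overlap (109 to 134 FPKM against 140 to 150 FPKM). Of 6 LIM homeodomain and Prox relatives with a value the log2 fold change ran from -0.29 for Lhx4 to 0.51 for Lhx2. Their summed level was 26.3 to 42.3 FPKM in NMDA + PBS and 42.8 to 48.7 FPKM in NMDA + SCF. These sums did not overlap, but the control of list A (42.3 FPKM) lay beside the lowest NMDA + SCF library (42.8 FPKM). Lhx2, the largest part of the sum, had groups that overlapped (15.1 to 30.6 FPKM against 29.9 to 37.7 FPKM). Prox2, the paralog of Prox1, had 3.92, 3.39 and 4.23 FPKM in NMDA + PBS and 4.38, 4.83 and 5.13 FPKM in NMDA + SCF.

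Markers of other retinal cells were compared with the members as a check of what the tissue held. The amacrine list (14 of 15 genes with a value) summed to 313 to 382 FPKM in NMDA + PBS and 374 to 389 FPKM in NMDA + SCF, and the bipolar list (9 of 10) to 441 to 562 and 527 to 560 FPKM. The Müller glia list (7 of 8) summed to 2309 to 4055 and 3264 to 3471 FPKM and the rod list (8 of 9) to 2761 to 3351 and 3177 to 3779 FPKM. The endothelial list (7 of 8) summed to 91.9 to 228 and 191 to 250 FPKM. The groups overlapped in each of these 5 lists. The members themselves summed to 58.9 to 80.4 FPKM in NMDA + PBS and 59.9 to 70.4 FPKM in NMDA + SCF, mostly Calb1, which other cells of the retina also use.

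**Figure D4:**
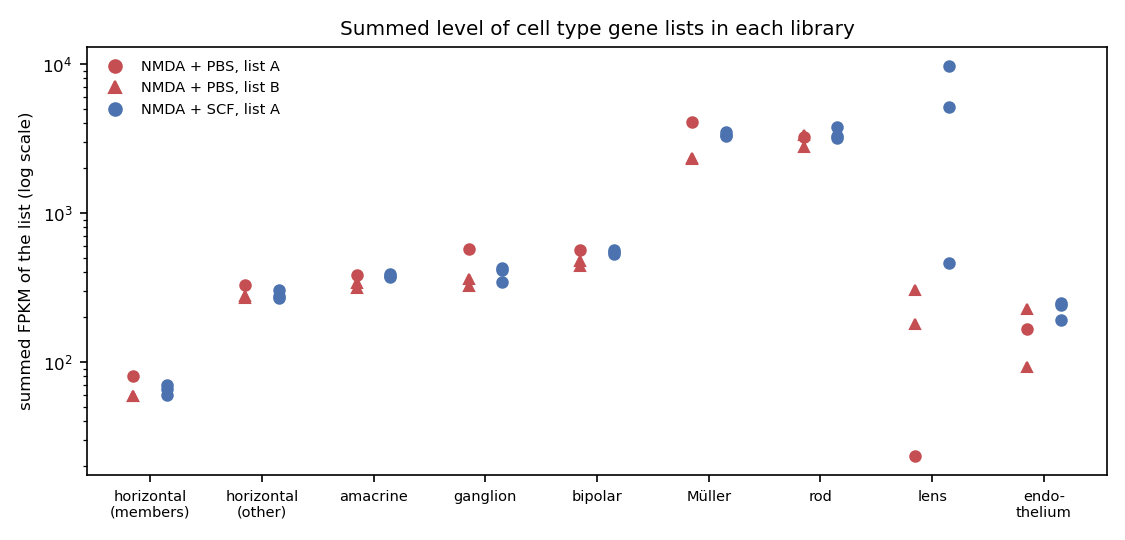
Summed FPKM per library (vertical axis, log scale) of the members, of the other horizontal cell genes and of lists for other cell types. Red is NMDA + PBS, blue NMDA + SCF, and triangles are libraries of list B. Both horizontal cell sums overlap between groups, and of the lists plotted only that of the lens has groups that do not overlap (23.5 to 305 against 461 to 9611).

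The genes whose profile over the 6 libraries was most like each member were listed among 14012 genes with a mean of at least 1 FPKM (14013 for Prox1). They were Gm44734 for Lhx1 (Pearson r = 0.991), Atp6v1h, a subunit of the vacuolar proton pump, for Onecut1 (r = 0.995), Cldn23 for Calb1 (r = 0.988), Cebpd for Prox1 (r = 0.993) and Stx2 for Slc4a3 (r = 0.978). An r above 0.95 was reached by 22, 94, 24, 131 and 7 genes respectively. These values describe 6 libraries on 2 transcript lists, and they carry no test. Cebpd, an inflammatory transcription factor, had 0.157, 161 and 14.3 FPKM in NMDA + PBS and 0.614 to 1.39 FPKM in NMDA + SCF, so that its likeness to Prox1 lay in the list B libraries.

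**Figure D5:**
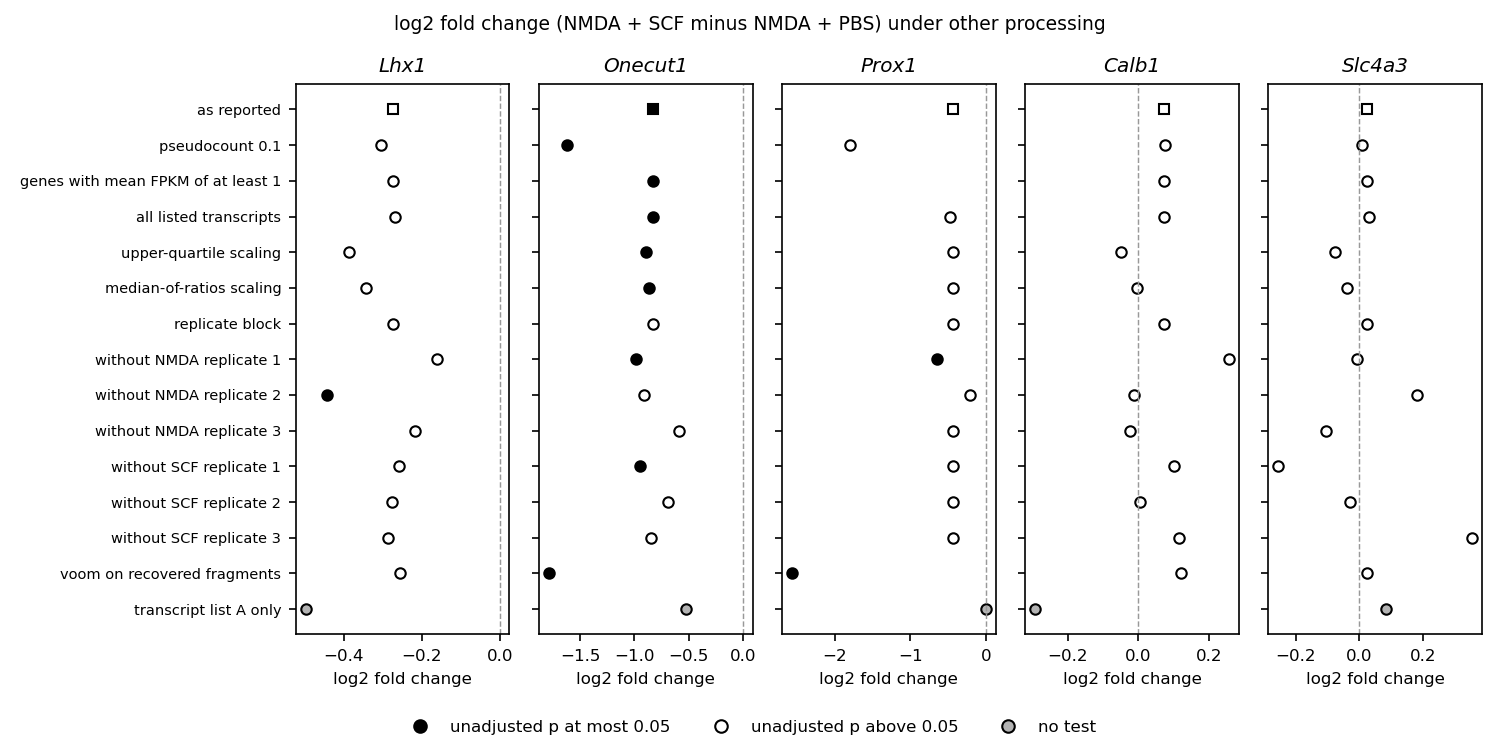
Log2 fold change of each member (horizontal axes, scales differ between panels) as reported (square) and under other processing (circles, 1 row each). Filled black marks have an unadjusted p of at most 0.05, open marks do not, and grey marks carry no test. Onecut1 and Lhx1 stay below 0 in every row, and Calb1 and Slc4a3 lie on both sides of 0.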

How the data were processed

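Retinal RNA-seq of 3 NMDA + PBS and 3 NMDA + SCF libraries (oligo (dT) enriched mRNA, Illumina HiSeq) was analysed. The authors deposited FPKM values per transcript for each library, and a deposited table of totals gave clean reads and Q30 as a percent of bases (92.9 to 94.3%). 5 columns of that table were not used. The aligner, the counting tool and the use of strand were not given in the sources used here. The submitters' notes name mm9, whereas 98.2% of the 63313 Ensembl transcripts found in GENCODE M21 (GRCm38) had its positions, so coordinates are given on GRCm38. Assembled transcripts without a gene name (8.85 to 11.4% of the FPKM sum) could not be assigned to a gene and were left out.

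Gene values were sums over the 46933 Ensembl transcripts of both lists (7529 were in list A only, 8966 in list B only) and tested with limma 3.58.1 in R 4.3.3 (variance trend, log2(FPKM + 1), condition only, two-sided, Benjamini-Hochberg over 25202 genes). The pipeline was tested on simulated data. The simulated counts did not hold the split between the transcript lists, so that test does not cover it. Fragments were recovered as FPKM times length divided by the value of 1 fragment (98.4% whole within 0.05 of a fragment). Python 3.11.15 was used for the rest. The members and all gene lists were chosen with earlier results of these data known. Genes named are the members, list genes whose groups did not overlap or that mark the ends of a list, and the most correlated gene for each member. Onecut3 was named, and single transcripts were added as an alternative, after their values were seen. The replicate numbers were not taken as pairs of libraries, except in the replicate block named below. Alternatives were another pseudocount, a filter on low values, all listed transcripts, 2 scalings, a replicate block, each library left out, voom on recovered fragments and list A alone.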

Additional observations from a re-analysis of the deposited data

How the results depend on the processing

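Each group had 3 libraries, list B was used for controls only, and Onecut1, Onecut2, Prox1 and Slc4a3 had few fragments. No member reached an adjusted p of 0.05 under any setting. The count over all genes past a 2-fold change and an adjusted p of 0.001 ranged from 0 to 55 when 1 library was left out, the 55 without NMDA + PBS replicate 1, where 849 genes had an adjusted p of at most 0.05. With unadjusted p of 0.05 as the threshold, 2324 genes passed. Voom placed 2 genes past an adjusted p of 0.05. Of the members, 1 had an unadjusted p of at most 0.05 as reported, 0 with the replicate block, 2 with voom, and 0 to 2 when 1 library was left out. The count over all genes moved as well. It was 1856 of 25202 with the replicate block, 2615 of 25169 with voom, and 1214 to 4404 of 25202 when 1 library was left out. The 4404 were without NMDA + PBS replicate 1, where 2 members passed. With the replicate block the unadjusted limma p of Onecut1 was 0.0625. With each group centred on its mean, same-numbered libraries correlated at -0.04, -0.04 and -0.06. This showed no pairing, but with 3 libraries in a group it cannot exclude one.

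The sign of Calb1 turned under upper-quartile scaling (-0.0506), median-of-ratios scaling (-0.00370), in list A alone (-0.29) and for the retained intron transcript alone (-0.97), and it ranged from -0.0237 to 0.26 when 1 library was left out. That of Slc4a3 turned under upper-quartile (-0.0780) and median-of-ratios scaling (-0.0376), and it ranged from -0.25 to 0.35 when 1 library was left out. Lhx1 kept its direction in all 16 alternatives, Onecut1 in all 14 (adjusted p 0.222 to 0.752) and Prox1 in all 13, except that it was 0 in list A alone. Onecut1 ran from -1.79 with voom to -0.52 in list A alone. The scalings moved the median of all genes by less than 0.1. The causes were not tested.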
